A study of Homo sapiens with 4 samples.

Results

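Chemokine and interleukin ligand genes were taken by their symbols, as every *CXCL* or *CCL* gene with a number, every *IL* gene with a number and at most 1 letter from A to F, and *CX3CL1*, *TNF*, *CSF1*, *CSF2* and *CSF3*. The rule gave 81 of the 28278 gene symbols in the count table, 24 *CCL*, 14 *CXCL* and 38 *IL* genes among them. The libraries are given as HepG2, a line from a human liver cancer. The cells were infected with lentivirus that carries Cas9 and either a control sgRNA (control, 2 libraries) or an sgRNA against *USP22* (sgUSP22, 2 libraries). Cells of both groups were then given 10 µM Sorafenib, a kinase inhibitor used against liver cancer, for 24 h, so these libraries hold no measure of the cells without the drug. Both populations were stable, puromycin-selected lines made with Cas9 and a single targeting guide, and whether the 2 libraries of a group came from separate cultures is not stated, so the p-values measure the spread between these libraries, which may be technical.

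Chemokines are small secreted proteins that draw leukocytes along a gradient through G protein-coupled receptors. Interleukins act through cytokine receptors, many of which signal by JAK kinases and STAT factors, and the IL-1 family and TNF act through receptors that activate NF-κB and the MAP kinases. In the liver they recruit immune cells, and IL-6 and IL-1 set the acute phase response of hepatocytes. USP22 is the ubiquitin protease of the SAGA complex, a chromatin-modifying coactivator.

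Total counts ranged from 62030307 to 64728272 per library. The transcript of the targeted gene was not lower under the guide, with 16450 and 16537 counts of *USP22* in the control libraries and 20279 and 20368 in those labelled sgUSP22. A transcript level alone does not show whether the gene was disrupted, and these libraries hold no measure of the protein. Every direction here follows the label. Markers of hepatocytes were missing, with 8 of 14 at 0 in all 4 libraries, *ALB*, *APOA1* and *TTR* among them, and no count above 19 for the rest. These counts do not bear out a hepatocyte-like line. The name of the line follows the label and could not be checked further here. Markers of fibroblasts were present, with sums of 645 and 641 CPM (counts scaled to library size) in control and 900 and 901 in libraries labelled sgUSP22. Of these 7 genes, 5 were tested, and *PDGFRA* was at 0. *DCN* and *LUM* were called higher (40%) and *PDGFRB* lower (20%), against 8.88% and 7.25% of all genes tested. A single gene of the list reached 37872 counts, so in at least 1 library it made up most of the fibroblast sum. Of 9 leukocyte markers, 4 were at 0 and *PTPRC* (CD45) reached at most 4 counts, although *CD68* had 2835 to 4610. The leukocyte sum was 76.7 and 77.0 CPM in control and 48.1 and 45.2 in libraries labelled sgUSP22. Of the 9, 2 were tested, *CD68* and *CSF1R*, and both were called lower, against 7.25% of all genes tested. No endothelial marker passed 17 counts. The part of the markers that differ between groups in the results below was not tested. In bulk RNA, fewer cells of a type and less RNA per cell cannot be told apart.

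Most of the ligand genes were not detectable at this depth. Of the 81, 47 were listed at 0 in all 4 libraries, 13 more had some counts but fewer than 20 in all libraries but 1 at most, and 21 had at least 20 counts in 2 libraries. A listing of 0 allows up to 3 counts, between 0.0457 and 0.0492 CPM depending on the library, and this limit covers counting error only. Among the genes at 0 throughout were the neutrophil attractants *CXCL1*, *CXCL5* and *CXCL6*, the homeostatic chemokine *CXCL12*, the alarmin *IL33* and the T cell cytokines *IL2*, *IL4* and *IL13*. By family, 16 of 24 *CCL* genes, 7 of 14 *CXCL* genes and 23 of 38 *IL* genes were at 0 in every library. The least abundant genes inside the limit included *IL17D*, with 24 and 37 counts in control and 54 and 21 in libraries labelled sgUSP22, and *CCL28*, which reached 20 counts only in libraries labelled sgUSP22. Just outside it lay *TNF*, with 8 and 0 counts in control and 16 and 28 in libraries labelled sgUSP22, *IL37* with at most 14 counts and *IL23A* with at most 19.

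**Figure D1:**
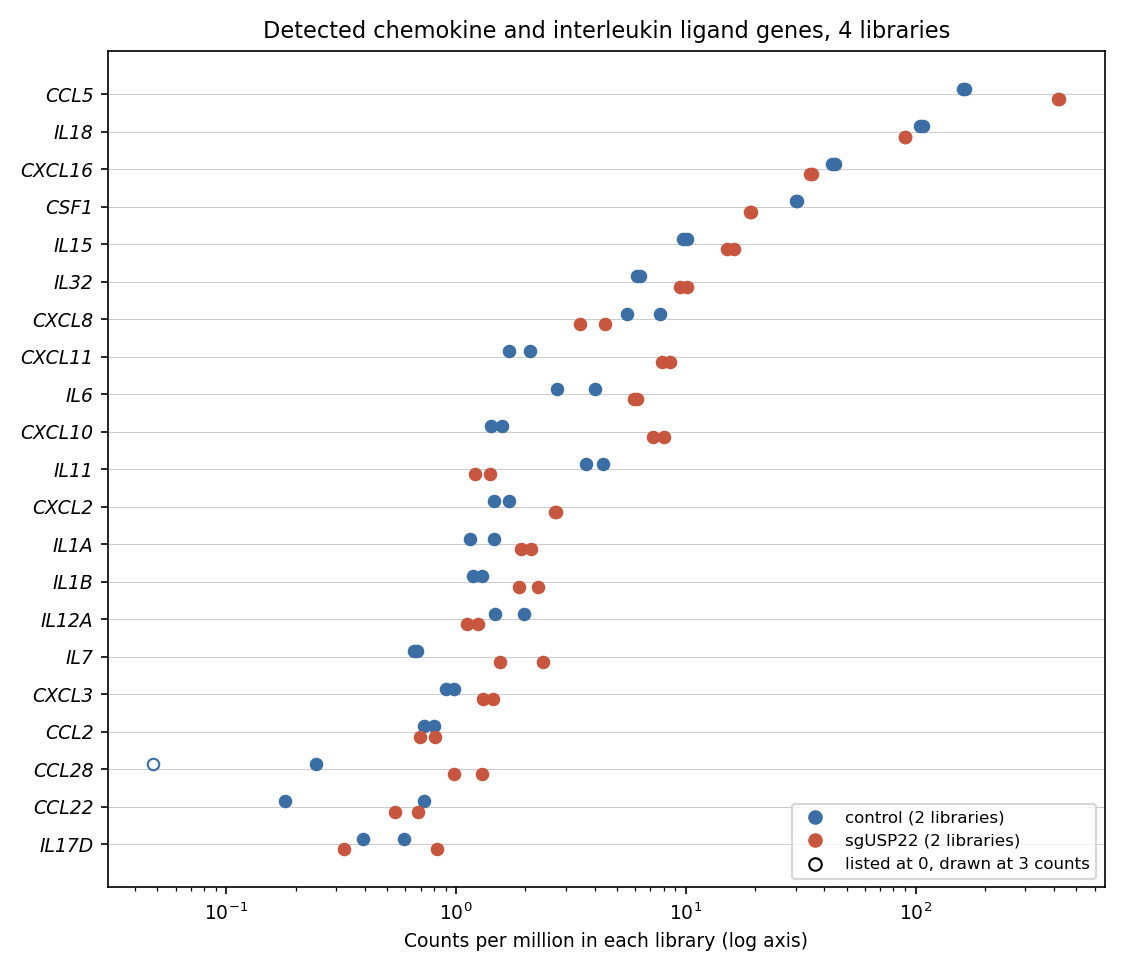
Level of each of the 21 detected ligand genes in CPM on a log axis, with 1 point per library, control in blue and sgUSP22 in red, and an open point where a gene was listed at 0. *CCL5* stands at the top with 160 to 164 in control and 415 to 422 in libraries labelled sgUSP22, and the groups overlap for *CCL2*, *CCL22* and *IL17D*.

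Of the 22 ligand genes that passed the filter on low counts (the 21 detected genes and *TNF*), 10 rose and 3 fell in the libraries labelled sgUSP22, at an edgeR adjusted p below 0.05 over all genes tested and a change of at least 1.5-fold. The genes that rose, or 45.5% of those tested, were *CCL5*, *CCL28*, *CXCL2*, *CXCL10*, *CXCL11*, *IL1B*, *IL6*, *IL7*, *IL15* and *IL32*, and the 13.6% that fell were *CSF1*, *CXCL8* and *IL11*. Over all 15150 genes tested, 8.88% were called higher and 7.25% lower. The median log2 fold change was 0.64 over the 22 ligand genes and 0.0009 over all genes tested. That median includes *TNF* and *CCL28*, which had passed the filter only through the libraries labelled sgUSP22. *CCL28* is also among the 10 genes that rose. For 19 of the 22 genes (86.4%) the 2 groups were fully separated, as they were for 75.9% of all genes tested. The plot of fold changes by gene sets these values with their errors side by side.

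**Figure D2:**
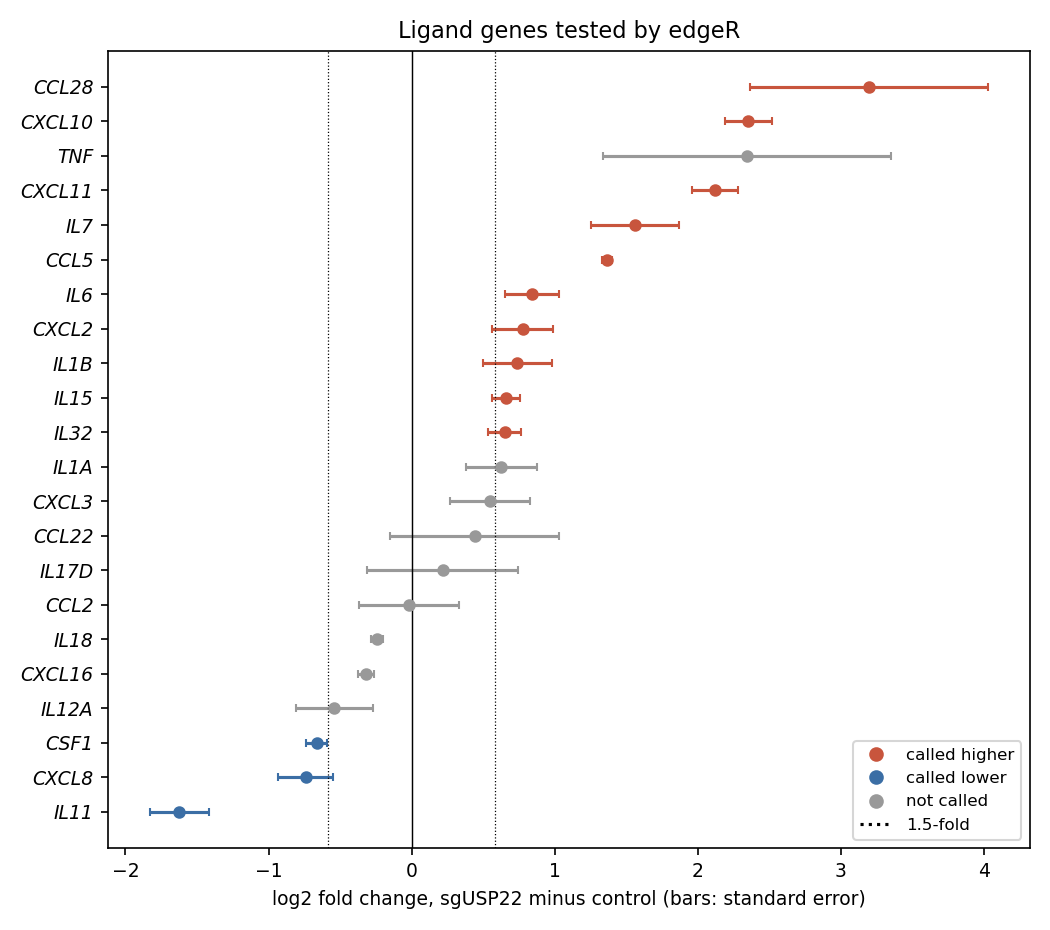
Log2 fold change between libraries labelled sgUSP22 and control for the 22 ligand genes tested, with the standard error as bars, 0 as a solid line and 1.5-fold as dotted lines. The 10 genes called higher run from *IL32* at 0.65 to *CCL28* at 3.20, *IL11* lies lowest at -1.62, and *TNF* and *CCL28* have the widest bars.

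*CCL5* (RANTES), which attracts T cells and monocytes, was the most abundant ligand transcript in every library. It had 10024 and 10006 counts in control and 27741 and 26774 in libraries labelled sgUSP22. Both of the latter stood far above both control libraries, and replicates lay close together. The means were 162 ± 2.83 CPM (SD, n = 2) and 418 ± 5.24 CPM (SD, n = 2), a 2.58-fold rise (log2 fold change 1.37, standard error 0.035, edgeR adjusted p = 4.59e-09). GENCODE places the gene at chr17:35871491-35880793 (hg38, minus strand). *CCL5* made up 42.5% and 41.6% of all ligand counts in control and 66.4% in each library labelled sgUSP22. Summed over all 81 genes, the level was 387 and 385 CPM in control and 636 and 625 in libraries labelled sgUSP22, whereas without *CCL5* it was 223 and 225 against 213 and 210. The sum of the other ligand transcripts was thus lower in both libraries labelled sgUSP22, where *IL18*, *CXCL16* and *CSF1*, the next in abundance, had lower levels.

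The largest rises with narrow errors were those of *CXCL10* and *CXCL11*, interferon-inducible chemokines that attract activated T cells through CXCR3. *CXCL10* had 96 and 88 counts in control and 529 and 466 in libraries labelled sgUSP22. *CXCL11* had 103 and 130 counts in control and 518 and 550 in libraries labelled sgUSP22. For both genes each library labelled sgUSP22 stood far above the higher control library. *CXCL10* rose 5.12-fold, from 1.49 ± 0.116 to 7.63 ± 0.588 CPM (SD, n = 2; log2 fold change 2.35, standard error 0.16, edgeR adjusted p = 2.26e-06). *CXCL11* rose 4.35-fold, from 1.89 ± 0.279 to 8.20 ± 0.451 CPM (SD, n = 2; log2 fold change 2.12, standard error 0.16, edgeR adjusted p = 4.24e-06). The third CXCR3 ligand, *CXCL9*, was listed at 0 in all 4 libraries.

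*CXCL10* (chr4:76021118-76023497) and *CXCL11* (chr4:76033682-76041415) are neighbours on the minus strand of chromosome 4, 10.2 kb apart in the GENCODE annotation of hg38. Their upstream sequences are printed because these neighbours moved together. They are the 250 bases before the start given by RefSeq (GRCh38.p14), 5′ to 3′ on the minus strand at chr4:76023498-76023747 and chr4:76036071-76036320. Capitals mark matches, on either strand, to an interferon response element (GAAANNGAAA), the κB consensus (GGGRNWYYCC) or AP-1 (TGANTCA). In these letters N is any base, R is A or G, W is A or T and Y is C or T.
CXCL10: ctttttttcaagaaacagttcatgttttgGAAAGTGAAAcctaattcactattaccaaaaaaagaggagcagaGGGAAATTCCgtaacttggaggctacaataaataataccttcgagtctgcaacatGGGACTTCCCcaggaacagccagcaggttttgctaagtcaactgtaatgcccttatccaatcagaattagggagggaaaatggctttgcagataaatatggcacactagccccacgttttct
CXCL11: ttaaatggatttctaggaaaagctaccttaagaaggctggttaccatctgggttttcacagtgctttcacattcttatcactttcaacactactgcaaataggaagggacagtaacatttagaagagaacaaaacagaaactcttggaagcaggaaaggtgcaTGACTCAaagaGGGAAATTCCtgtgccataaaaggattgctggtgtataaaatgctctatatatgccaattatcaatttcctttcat
The *CXCL10* stretch held an interferon element that begins 221 bases before the start and 2 κB matches at 177 and 122 bases. The *CXCL11* stretch held an AP-1 match at 87 bases and a κB match at 76 bases, and no interferon element of these letters. It does hold AAAACAGAAA, which departs from the interferon letters at the first base only, and near matches were not counted. Of 35116 promoters of this length, 3.02% held the interferon element, 5.21% the κB consensus and 6.57% the AP-1 letters. Of the 14 detected ligand genes with a promoter entry, 9 held a κB match, 5 an AP-1 match and 1 the interferon element. Some of these genes had more than 1 entry, and a match in any entry was counted. These are therefore counts of genes, where the percentages are of promoters. Genes that were not called were among them, *CXCL3*, *CCL22*, *IL12A* and *IL17D* for κB and *IL1A* and *IL17D* for AP-1. The RefSeq start of *CXCL11* lies inside the longer span that GENCODE gives the gene. A match is a description of the sequence and does not show that a factor bound there.

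The remaining CC chemokines were scarce. *CCL28* (chr5:43376645-43412391), an epithelial chemokine for CCR3 and CCR10, had 15 and 0 counts in control and 85 and 63 in libraries labelled sgUSP22, and its log2 fold change of 3.20 carried a standard error of 0.83 (edgeR adjusted p = 0.00889). With DESeq2 in place of edgeR it was not called (adjusted p = 0.276). *CCL2* (MCP-1), the monocyte attractant, had 44 and 50 counts in control and 53 and 45 in libraries labelled sgUSP22, and the groups overlapped (log2 fold change -0.02, standard error 0.35, edgeR adjusted p = 0.97). *CCL22*, a ligand of CCR4, varied as much within control (11 and 45 counts) as between groups (45 and 35 counts in libraries labelled sgUSP22). Of the CC genes below the detection limit, *CCL3* was listed at 0 in both control libraries and had 6 and 12 counts in libraries labelled sgUSP22. Its reads may be shared with near-identical copies such as *CCL3L1*.

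CXC chemokines that carry the ELR motif, which attract neutrophils through CXCR1 and CXCR2, went in opposite directions. *CXCL8* (IL-8, chr4:73740519-73743716) had 339 and 480 counts in control and 293 and 224 in libraries labelled sgUSP22. The groups did not overlap, but the gap between them was narrower than that between the control libraries. It fell from 6.63 ± 1.51 to 3.96 ± 0.699 CPM (SD, n = 2; log2 fold change -0.74, standard error 0.19, edgeR adjusted p = 0.00853). Without control replicate 2 the value was -0.49 (edgeR adjusted p = 0.064), and without the second library labelled sgUSP22 it was -0.57 (edgeR adjusted p = 0.0613). *CXCL2* (chr4:74097040-74099196) had 103 and 91 counts in control and 178 and 173 in libraries labelled sgUSP22, a 1.71-fold rise (log2 fold change 0.78, standard error 0.21, edgeR adjusted p = 0.0114). This call was lost without control replicate 2 (edgeR adjusted p = 0.0528), without the first library labelled sgUSP22 (edgeR adjusted p = 0.0547) and with DESeq2 (adjusted p = 0.0602). *CXCL3* had 55 and 61 counts in control and 95 and 84 in libraries labelled sgUSP22, with a log2 fold change of 0.55 that did not pass the test (edgeR adjusted p = 0.132). *CXCL1*, *CXCL2* and *CXCL3* are close paralogs, and how the authors' counting divided reads among them is not known.

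*CXCL8*, *CXCL3* and *CXCL2* lie within 359 kb of chromosome 4, and 1.92 Mb separates *CXCL2* from *CXCL10*. The 250 bases before the RefSeq start are shown for *CXCL2* (minus strand, chr4:74099196-74099445) and *CXCL8* (plus strand, chr4:73740319-73740568), called in opposite directions from the same cluster, with capitals as above.
CXCL2: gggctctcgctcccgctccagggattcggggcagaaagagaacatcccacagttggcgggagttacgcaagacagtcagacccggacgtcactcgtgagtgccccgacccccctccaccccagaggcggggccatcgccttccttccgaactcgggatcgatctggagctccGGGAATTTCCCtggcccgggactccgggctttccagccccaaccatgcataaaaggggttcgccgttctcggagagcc
CXCL8: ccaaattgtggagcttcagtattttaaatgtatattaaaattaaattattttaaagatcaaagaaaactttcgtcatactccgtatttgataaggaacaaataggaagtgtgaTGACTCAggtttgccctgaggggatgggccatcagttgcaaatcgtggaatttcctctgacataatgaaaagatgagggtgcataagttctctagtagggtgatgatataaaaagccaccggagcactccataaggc
The *CXCL2* stretch held 2 overlapping κB matches that begin 78 and 77 bases before the start. The *CXCL8* stretch held an AP-1 match at 137 bases and no exact match to the κB letters searched. It does hold TGGAATTTCC, which departs from those letters at the first base only, and near matches were not counted.

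Among the other CXC chemokines, *CXCL16*, a membrane-bound ligand of CXCR6 that is also a scavenger receptor, had 2639 and 2777 counts in control and 2333 and 2244 in libraries labelled sgUSP22. The difference was larger than the spread between replicates but small (log2 fold change -0.32, standard error 0.055, edgeR adjusted p = 0.00082), below the 1.5-fold limit. *CXCL12*, *CXCL13* and *CXCL14* were at 0 in all libraries.

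In the IL-1 family, whose members start inflammatory signalling, *IL1A* and *IL1B* had higher levels in libraries labelled sgUSP22 and *IL18* a lower one. *IL1B* (chr2:112829751-112836816) had 72 and 81 counts in control and 149 and 121 in libraries labelled sgUSP22, a 1.67-fold rise (log2 fold change 0.74, standard error 0.24, edgeR adjusted p = 0.0279). It was no longer called with DESeq2 (adjusted p = 0.128), or in edgeR without control replicate 1 (adjusted p = 0.0939), without control replicate 2 (0.053) or without the first library labelled sgUSP22 (0.176). *IL1A*, its neighbour 45.3 kb away on chromosome 2, had 70 and 91 counts in control and 126 and 136 in libraries labelled sgUSP22, a log2 fold change of 0.63 that missed the threshold (standard error 0.25, edgeR adjusted p = 0.0573). *IL18*, which is made as a precursor and cleaved by caspase-1, was the second most abundant ligand transcript, with 6580 and 6515 counts in control and 5922 and 5771 in libraries labelled sgUSP22. Its log2 fold change of -0.24 (standard error 0.040, edgeR adjusted p = 0.000668) passed the p threshold but not 1.5-fold. *IL33*, *IL36A* and *IL36B* were at 0.

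The gp130 cytokines *IL6* and *IL11*, which share the signalling receptor chain gp130, moved in opposite directions. *IL6* (chr7:22725884-22732002), the main inducer of the hepatic acute phase response, had 167 and 250 counts in control and 403 and 385 in libraries labelled sgUSP22. It rose from 3.37 ± 0.897 to 6.05 ± 0.119 CPM (SD, n = 2; log2 fold change 0.84, standard error 0.19, edgeR adjusted p = 0.0039). *IL11* (chr19:55364382-55370463), known for its part in fibrosis and haematopoiesis, had 266 and 230 counts in control and 92 and 78 in libraries labelled sgUSP22. Both libraries labelled sgUSP22 lay well below both controls, a 3.09-fold fall from 4.02 ± 0.478 to 1.30 ± 0.136 CPM (SD, n = 2; log2 fold change -1.62, standard error 0.20, edgeR adjusted p = 0.000109). *IL11* had the largest fall among the ligand genes tested. Its upstream 250 bases, on the minus strand of chromosome 19 at chr19:55370464-55370713, are printed for that reason, with capitals as above.
IL11: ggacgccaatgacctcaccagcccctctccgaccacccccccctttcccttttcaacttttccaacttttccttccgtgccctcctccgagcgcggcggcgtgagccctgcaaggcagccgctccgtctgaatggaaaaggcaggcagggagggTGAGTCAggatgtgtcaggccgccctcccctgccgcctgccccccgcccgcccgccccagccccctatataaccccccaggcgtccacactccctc
They held an AP-1 match that begins 96 bases before the RefSeq start, and neither of the other motifs.

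Cytokines of the common γ chain, which support lymphocytes, rose where they were detected. *IL15* (chr4:141636583-141733987), needed by natural killer and memory T cells, had 589 and 632 counts in control and 988 and 1044 in libraries labelled sgUSP22 (log2 fold change 0.66, standard error 0.098, edgeR adjusted p = 0.000324). *IL7* (chr8:78675743-78805523), the lymphocyte survival factor, had 40 and 42 counts in control and 156 and 100 in libraries labelled sgUSP22. Its libraries labelled sgUSP22 differed from each other more than the controls did, and both lay above them (log2 fold change 1.56, standard error 0.31, edgeR adjusted p = 0.00185). *IL2*, *IL4*, *IL9* and *IL21* were at 0.

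*IL32* (chr16:3065297-3082192), a cytokine of lymphocytes and epithelial cells with no mouse counterpart, had 372 and 394 counts in control and 618 and 650 in libraries labelled sgUSP22 (log2 fold change 0.65, standard error 0.12, edgeR adjusted p = 0.00106). *CSF1* (chr1:109910242-109930992), the growth factor of macrophages, had 1829 and 1907 counts in control and 1266 and 1224 in libraries labelled sgUSP22. It fell from 30.3 ± 0.404 to 19.1 ± 0.216 CPM (SD, n = 2; log2 fold change -0.66, standard error 0.072, edgeR adjusted p = 4.13e-05). Once trends with GC content and length were removed, a setting added after the data had been seen, *CSF1* (-0.56) and *IL15* (0.53) were below the 1.5-fold limit. *IL12A*, the p35 subunit of IL-12 and IL-35, had 120 and 92 counts in control and 82 and 72 in libraries labelled sgUSP22, and its log2 fold change of -0.54 did not pass the test (edgeR adjusted p = 0.119). *IL17D* overlapped between the groups, and *TNF*, with its few counts, did not pass (log2 fold change 2.34, standard error 1.0, edgeR adjusted p = 0.0767). Of the 21 detected genes, *CXCL16*, *IL12A*, *IL17D*, *IL32*, *IL6* and *IL7* share exonic bases with another annotated gene, and since the strand setting is not given their counts may hold reads of it.

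Per kilobase of the canonical transcript, on the scale on which genes can be compared, *CCL5* stood highest with 125 CPM per kb in control and 322 in libraries labelled sgUSP22. *IL18* followed with 95.2 and 80.5, and *CXCL16* with 18.9 and 15.1. *IL32* and *CSF1* were level in control, with 7.59 and 7.58 CPM per kb, and stood at 11.9 and 4.79 in libraries labelled sgUSP22. *CXCL10* and *CXCL11*, at 1.27 and 1.28 in control, reached 6.5 and 5.55, above *CXCL8*, which went from 4.04 to 2.41. The order among the moderately expressed ligands thus differed between the groups, while *CCL5*, *IL18* and *CXCL16* kept the highest levels in both.

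The chromosomal surroundings of the ligand genes were described by the median log2 fold change of the 20 nearest tested genes that were no ligands, 10 on each side. Around the 13 called ligands these medians ran from -0.23 (*CCL5*) to 0.24 (*CXCL2* and *CXCL8*). The called genes were chosen for a change of at least 1.5-fold, so that their own values lie farther from 0 is no result. The neighbours' median had the opposite sign for 4 of the 13, *CCL5*, *IL6*, *IL32* and *CXCL8*. Around *CXCL10* and *CXCL11* it was 0.17, with 3 of 20 genes called higher, against 8.88% of all genes tested. Around *IL17D*, which was not called (log2 fold change 0.22), the 19 genes found had a median of 0.70. Of these, 10 were called higher, against the same 8.88%. The plot of called ligands beside their neighbours shows the values for each gene.

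Receptors were described from a list of 66 chemokine, interleukin, TNF and colony-stimulating factor receptors. Of these, 27 were at 0 in all libraries and 30 were tested, of which 9 (30%) rose and 1 (3.33%) fell, against 8.88% and 7.25% of all genes tested, with a median log2 fold change of 0.08. The pairs below were named after their values had been seen. Among receptors of chemokines that rose, *CXCR3* and *CCR3* were listed at 0 in all 4 libraries. *CCR10*, for *CCL28*, had 29 and 52 counts in control and 25 and 37 in libraries labelled sgUSP22 (log2 fold change -0.46, not called), and *ACKR3*, an atypical receptor that binds CXCL11, had 3730 and 3572 against 3428 and 3291 counts (-0.20, not called). Also at 0 throughout were *CXCR1* and *CXCR2*, the receptors of *CXCL8*. Among chains for interleukins that rose, some were called higher and others were not. *IL7R* had 425 and 482 counts in control and 1295 and 1230 in libraries labelled sgUSP22 (log2 fold change 1.40, edgeR adjusted p = 2.71e-06), and *IL2RG*, the common γ chain, went from 25 and 17 to 74 and 131 counts (log2 fold change 2.2, edgeR adjusted p = 0.00133). The *IL15* receptor chains *IL15RA* (log2 fold change 0.07, edgeR adjusted p = 0.679) and *IL2RB* (0.37, edgeR adjusted p = 0.491) were not called. *IL1R1* (0.86) and its partner *IL1RAP* (0.89) were called higher. *IL6ST*, which encodes gp130, was called higher at 0.65 and *IL11RA* at 0.74, opposite to *IL11*, while *IL6R* had -0.01 and was not called. *CSF1R* fell like its ligand, from 173 and 174 to 61 and 64 counts (log2 fold change -1.55, edgeR adjusted p = 0.000293). The largest receptor change above an average of 1 log2 CPM was that of *IL20RB* (1.46), followed by those of *IL7R* and *IL4R* (1.01).

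Of 35 further cytokines and antagonists that the symbol rule leaves out, 20 were tested, with 1 (5%) called higher and 2 (10%) lower, near the shares over all genes tested (8.88% and 7.25%). *TNFSF10* (TRAIL), a death ligand, rose from 41 and 34 counts to 208 and 248 (log2 fold change 2.52, edgeR adjusted p = 2.05e-05). *TGFB1* (-0.74) and the gp130 cytokine *LIF* (-0.59) fell. The interferon genes of the list were near the limit, with 4 and 0 counts of *IFNB1* in control against 15 and 6 in libraries labelled sgUSP22, too few to be tested, and 18 and 13 against 39 and 40 of *IFNL1* (log2 fold change 1.26, edgeR adjusted p = 0.053).

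All 40 genes of the NF-κB list were tested, and 7 (17.5%) fell and 2 (5%) rose, with a median log2 fold change of 0.02. Over all genes tested, 7.25% fell and 8.88% rose. The genes that fell included *MAP3K14* (NIK, -1.03), the adaptor *TRAF2* (-0.98), the kinase *IRAK2* (-0.84) and *NFKB2* (-0.77). The inhibitors *TNFAIP3* (A20), *NFKBIA* (IκBα) and the adhesion molecule *ICAM1* were the other three. *PTGS2* (COX-2) rose from 286 and 325 counts to 1373 and 1268 (log2 fold change 2.03, edgeR adjusted p = 4.35e-07) and *BIRC3* rose by a log2 fold change of 0.66. Of 17 tested AP-1, EGR1 and C/EBP genes, 2 (11.8%) rose and 4 (23.5%) fell, against 8.88% and 7.25% of all genes tested. *EGR1*, an immediate early factor, went from 1045 and 858 counts to 10574 and 10215 (log2 fold change 3.37, edgeR adjusted p = 3.12e-09) and *FOS* rose by 0.92 on the log2 scale. *JUN* (-1.12), *MAFF* (-0.81), *FOSL1* (-0.70) and *BATF3* (-0.64) fell. Of 26 acute phase genes, 12 were at 0 in all libraries and 9 were tested, of which the complement genes *C3* (2.09) and *CFB* (2.25) rose, 22.2% against 8.88% of all genes tested. By edgeR with no fold limit, 3 of the 9 were higher and 0 lower, against 26.8% and 25.8% of all genes tested. The plot of ligands beside these lists shows each gene.

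**Figure D3:**
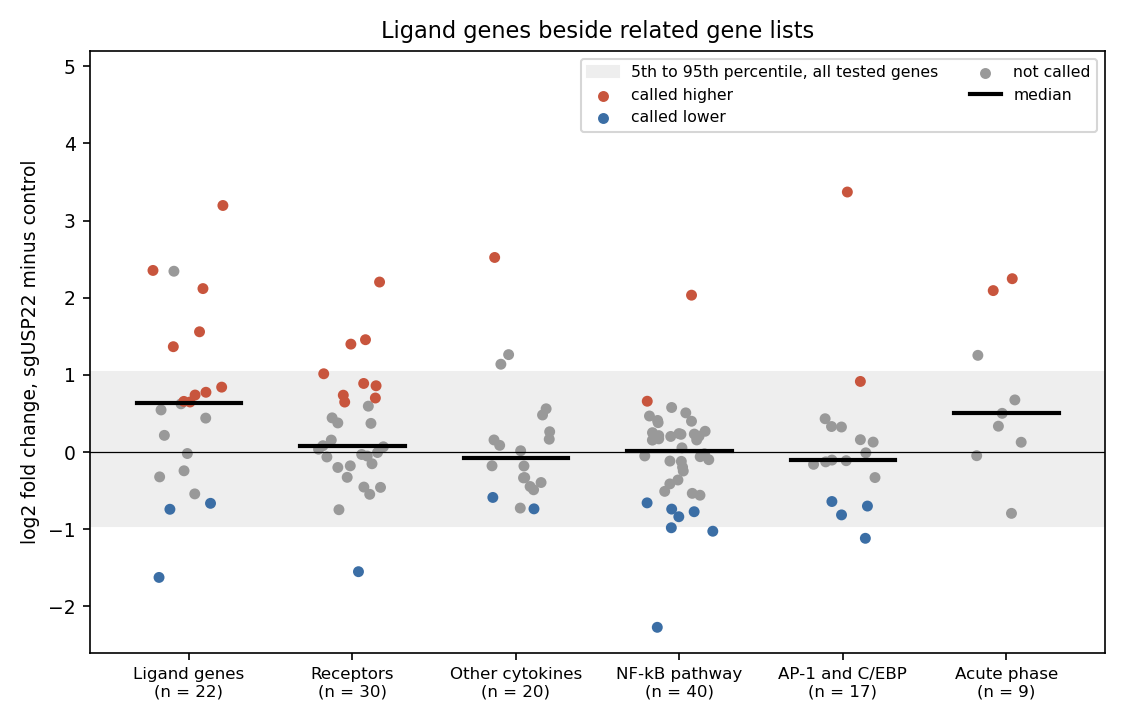
Log2 fold change of each tested gene (points, red where called higher, blue where called lower, grey where not called) for the ligand genes and 5 related lists, with the median as a black bar and the range from the 5th to the 95th percentile of all tested genes shaded, -0.96 to 1.03. The ligand genes have their median at 0.64, and the other medians run from -0.10 to 0.50.

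Of the 13 calls, 5 were kept in all 13 other settings, those of *CCL5*, *CXCL10*, *CXCL11*, *IL7* and *IL11*. The calls of *CSF1*, *IL15*, *IL32*, *IL6*, *CXCL8*, *CXCL2*, *IL1B* and *CCL28* were lost in at least 1. Those of *IL32* and *IL6* were lost only where the change itself was tested against 1.5-fold. The plot of values across settings shows the fold changes.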

How the data were processed

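RNA-seq of 4 libraries given as HepG2 was analysed, 2 control and 2 labelled sgUSP22. The authors aligned reads to hg38 with HISAT2 2.2.1 and deposited whole-number gene counts from StringTie 2.2.1, which derives counts from read coverage, with no scaling for library size. Annotation, strand setting and read length are not given in the sources used here. Samples were assigned by column name. Counts were normalized and tested in R 4.3.3 with edgeR 4.0.16 (TMM, filterByExpr with a minimum count of 10, glmQLFTest, Benjamini-Hochberg over 15150 genes), and CPM use the TMM-scaled library sizes. A standard error is the size of the fitted log2 change over the root of its F statistic. Genes were called below 0.05 and at 1.5-fold or more, the thresholds of the study. DESeq2 1.42.0 was an alternative. Procedures were tested on simulated data.

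Of 28278 symbols, 25763 matched GENCODE 44 (hg38), including all 81 ligand genes. Promoter sequences came from RefSeq (GRCh38.p14), where 14 of the 21 detected ligands had an entry. The ligand genes, gene lists and tests were chosen with earlier results of these data known. Named were all detected or called ligands and, per list, up to 4 called genes a direction above an average of 1 log2 CPM. Motifs, receptor pairs, *TNFAIP3*, *NFKBIA*, *ICAM1*, *IFNB1* and *IFNL1* were chosen after values were seen.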

Additional observations from a re-analysis of the deposited data

How the results depend on the processing

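Among 281 comparisons of a tested ligand gene with another setting, 249 kept direction and side of the call threshold, 22 lost the call, 4 gained it and 6 changed direction. The count of ligand genes called (10 higher, 3 lower) stayed within 1.5 times with DESeq2 (7 and 3), RLE factors (10 and 3) and library size alone (11 and 3). It also did so with no filter (9 and 2), a mean count limit of 50 (9 and 3) and the GC and length correction (9 and 2). Over all genes tested, DESeq2 called 1206 higher and 943 lower, RLE factors 1339 and 1115, and library size alone 1557 and 941. No filter gave 1246 and 985, the mean limit 1166 and 956 and the GC and length correction 1181 and 1006. The ligand genes tested numbered 27 with DESeq2, 34 with no filter, 17 at the mean limit and 22 in the others. With a library left out, the lone library of its group is assumed to vary like the others. By construction, the number of ligand genes called changed without the fold limit (5 lower) and in a test against 1.5-fold (4 higher, 1 lower). Over all genes these gave 4057 higher and 3904 lower, and 578 and 428, against 1345 and 1098. *IL1A* was called with library size alone (adjusted p = 0.0414), and *CXCL8* (0.0523) and *CCL28* (0.073) lost the call with no filter. Depth limits the scarce genes. *CCL2* changed direction with library size alone (0.033) and ran from -0.14 to 0.082 with a library left out, *CCL22* from -0.23 to 1.75 and *IL17D* from -0.61 to 0.73. *TNF* was called without control replicate 1 (7.45), where the other control library was listed at 0. Detected genes numbered 22 and 19 at limits of 10 and 50 counts.

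Replicate numbers were not taken as a pairing, since no source ties them to a batch. Same-numbered libraries' deviations had a correlation of 0.078 over genes, which alone cannot show whether a pairing existed. Under the replicate block, 10 ligand genes were higher and 3 lower, against 1341 and 1100 over all genes tested.

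For the related lists, no fold limit gave 7 of 30 receptors lower and 3 and 6 of 20 other cytokines higher and lower. It gave 14 and 14 of 40 NF-κB genes, and 6 of 17 AP-1 and C/EBP genes higher. Over all genes tested it gave 26.8% higher and 25.8% lower. A test against 1.5-fold gave 5 receptors higher, 1 other cytokine lower, 1 NF-κB gene higher and 2 AP-1 genes lower. Of all 15150 genes, 578 were higher and 428 lower in that test. Library size alone gave 3 other cytokines higher and 1 lower, against 1557 higher and 941 lower over all genes tested. The GC and length correction gave 2 receptors lower, 3 and 1 other cytokines and 2 AP-1 genes lower. Over all genes tested it gave 1181 higher and 1006 lower. With a library left out, the counts called in these lists are not given, since a lone library then stands for its group. The cause of the changes between settings was not tested.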
